A study of Danio rerio with 32 samples.

Results

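CARTPT (ENSDARG00000035852), rtn4rl2b (ENSDARG00000037495) and th2 (ENSDARG00000038384), genes known from the nervous system, were followed through 8 groups of zebrafish larval livers. These 3 genes, of 32519 in the count table, were chosen from the same libraries because they were nearly absent in DMSO livers and higher after acetaminophen. The difference between acetaminophen and DMSO therefore chose them and is described without a test. Genotypes and times were compared among acetaminophen livers in other contrasts, but from the same libraries that the choice used, so their p-values are not independent of it and serve as a description. In the data the mean was higher after acetaminophen for CARTPT and rtn4rl2b in both genotypes and at both times, but for th2 it was not in wild-type livers at 24 h, where the mean level was 4.05 CPM (the gene's reads scaled to the size of the library) after acetaminophen and 4.68 CPM in DMSO.

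RNA was sequenced from livers of wild-type (WT) fish and of fish labelled nrf2KO (KO), exposed to acetaminophen (APAP), an analgesic that injures the liver in overdose, or to dimethyl sulfoxide (DMSO), the control, and collected at 12 h or 24 h. Genotype, treatment and time were crossed into 8 groups of 4 libraries, WT DMSO, WT APAP, KO DMSO and KO APAP at each time, and each library came from 20 pooled livers. Nrf2 is a transcription factor of the oxidative stress response, and the labels do not say which of its zebrafish copies was mutated. The APAP dose and the age of the larvae are not given in the sources used here.

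CARTPT encodes the precursor of CART peptides, neuropeptides released by neurons and neuroendocrine cells and studied for their part in feeding and stress. The product of rtn4rl2b belongs to the Nogo receptor family, leucine-rich repeat proteins held to the cell surface by a lipid anchor, and its mammalian relatives bind inhibitors of axon growth. The enzyme encoded by th2, the second tyrosine hydroxylase gene of fish, is an aromatic amino acid hydroxylase of monoamine neurons, and work in zebrafish has ascribed tryptophan hydroxylase activity to it. Such hydroxylases make the first step towards dopamine or serotonin and need tetrahydrobiopterin as cofactor.

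Total counts were between 3971569 and 6298523 per library, with 4129 to 14683 genes detected. The libraries with the fewest genes were KO APAP 12 h replicate 2 with 4129, WT DMSO 12 h replicate 2 with 8815 and KO DMSO 12 h replicate 3 with 9703. NFE2L2 (ENSDARG00000042824), the main nrf2 copy in the table, ranged from 29.8 to 83.9 CPM over the 16 WT libraries and from 6.10 to 54.4 CPM over the 16 KO libraries. Its transcript was thus present in every KO library, and its level does not check the genotype labels. Hepatocyte markers were abundant everywhere: fabp10a, a liver fatty acid binding protein, lay between 4584 and 49560 CPM. In whole livers fewer cells of a type and less RNA per cell cannot be told apart.

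All 3 genes were detected in 16 of 16 APAP libraries. In the 16 DMSO libraries CARTPT had reads in 10, rtn4rl2b in 11 and th2 in 10. Reads summed to 4296 for CARTPT under APAP and 69 under DMSO. The corresponding sums were 2139 and 111 for rtn4rl2b, and 1057 and 205 for th2. Levels are given as CPM after TMM scaling between libraries, which is not corrected for gene length, so levels are compared between groups and not between genes.

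CARTPT, the neuropeptide gene, was at or near 0 in 12 h DMSO livers. In WT DMSO at 12 h, CPM in replicates 1 to 4 was 0.468, 0, 0.352 and 0.152. WT APAP at 12 h gave 8.11, 10.4, 4.36 and 13.9 CPM. Every WT library under APAP lay above every one under DMSO, and the ratio of mean CPM was 37.8. In KO DMSO at 12 h the values were 0, 0.835, 0 and 0.144 CPM, and in KO APAP at 12 h they were 219, 129, 163 and 98.8 CPM. This was the highest group for CARTPT, and its mean of 152 ± 51.7 CPM (SD, n = 4) was 623 times the KO DMSO mean.

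At 24 h CARTPT was already detectable in all WT DMSO libraries, at 1.52, 2.26, 5.73 and 0.800 CPM. WT APAP livers at 24 h had 5.02, 10.6, 19.8 and 3.54 CPM. These groups overlapped, since WT APAP replicates 1 and 4 lay below WT DMSO replicate 3, and the ratio of means was 3.78. In KO DMSO at 24 h a single read was counted over 4 libraries, which put replicate 2 at 0.200 CPM and the others at 0. KO APAP livers at 24 h had 40, 81.8, 41.2 and 42.5 CPM. From the 932 reads under APAP and the single read under DMSO the ratio was 872, with a 95% counting interval of 156 to 34500. By mean, CARTPT ran from KO APAP at 12 h through KO APAP at 24 h (51.4 ± 20.3 CPM) to WT APAP at 24 h (9.74 ± 7.37) and at 12 h (9.19 ± 4.02), which differed by less than their spread. WT DMSO at 24 h (2.58 ± 2.19) came next, then KO and WT DMSO at 12 h (0.245 ± 0.399 and 0.243 ± 0.208), which also lay within their spread, and last KO DMSO at 24 h (0.0499 ± 0.0998).

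For rtn4rl2b, the Nogo receptor-like gene, only 1 read was counted over the 4 WT DMSO libraries at 12 h, with CPM of 0, 0, 0 and 0.152. WT APAP livers at 12 h had 7.44, 7.82, 13.5 and 7.40 CPM. With 178 reads against 1, the ratio was 263 with a 95% counting interval of 46.6 to 10400. KO DMSO livers at 12 h had 0.517, 2.86, 0 and 0.575 CPM, and KO APAP livers had 34.1, 142, 64.4 and 38.8 CPM. Neither genotype overlapped between treatments at 12 h, and the KO ratio of means was 70.6. The value of 142 CPM came from KO APAP 12 h replicate 2, the library with the fewest detected genes.

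At 24 h the WT libraries overlapped for rtn4rl2b. WT DMSO had 2.27, 0, 0.988 and 2.199 CPM, and WT APAP had 10.04, 3.20, 17.8 and 0.758 CPM. Replicate 4 of the APAP group lay below 3 of the 4 DMSO libraries, and the ratio of means was 5.81. KO DMSO livers had 2.60, 2.00, 5.17 and 2.46 CPM, while KO APAP livers had 42.5, 27.4, 16.9 and 27.9 CPM, with no overlap and a ratio of 9.37. In order of mean the groups were KO APAP at 12 h (69.8 ± 49.9 CPM) and at 24 h (28.7 ± 10.5), which overlapped, then WT APAP at 12 h (9.04 ± 2.98) and 24 h (7.94 ± 7.63), which differed by less than their spread. KO DMSO at 24 h (3.06 ± 1.43), WT DMSO at 24 h (1.37 ± 1.08), KO DMSO at 12 h (0.988 ± 1.28) and WT DMSO at 12 h (0.0380 ± 0.0760) followed, and the middle pair again lay within its spread.

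The monoamine gene th2 had no read in any of the 4 WT DMSO libraries at 12 h. WT APAP livers at 12 h had 0.676, 3.59, 0.871 and 2.96 CPM, from 39 reads in all. Against a floor of 3 reads over the DMSO group this was at least 19.2-fold higher. KO DMSO livers at 12 h had 0.259, 0, 0 and 1.44 CPM, and KO APAP livers had 16.1, 61.2, 18.8 and 11.8 CPM. The KO groups did not overlap and their ratio of means was 63.7, with the library of fewest genes again the highest.

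By 24 h th2 was present in every DMSO library, so it was not nearly absent there. WT DMSO libraries at 24 h had 12.5, 1.85, 3.76 and 0.5997 CPM, and WT APAP libraries had 5.02, 2.40, 3.74 and 5.06 CPM. The APAP values fell inside the range of the DMSO values, and the ratio of means was 0.866. KO DMSO libraries had 2.82, 6.39, 7.07 and 6.84 CPM, and KO APAP libraries had 20.9, 18.2, 33.04 and 30 CPM. Every KO APAP library lay above every KO DMSO library, and the ratio was 4.42. Group means ran from KO APAP at 12 h (26.97 ± 23.0 CPM) and 24 h (25.5 ± 7.13), within their spread, to KO DMSO at 24 h (5.78 ± 1.99), WT DMSO at 24 h (4.68 ± 5.38) and WT APAP at 24 h (4.05 ± 1.26), which differed by less than their spread. WT APAP at 12 h (2.03 ± 1.47), KO DMSO at 12 h (0.424 ± 0.686) and WT DMSO at 12 h (0) were lowest. Without KO APAP 12 h replicate 2 the 12 h mean of that group was 15.6 CPM, below the 24 h mean.

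**Figure D1:**
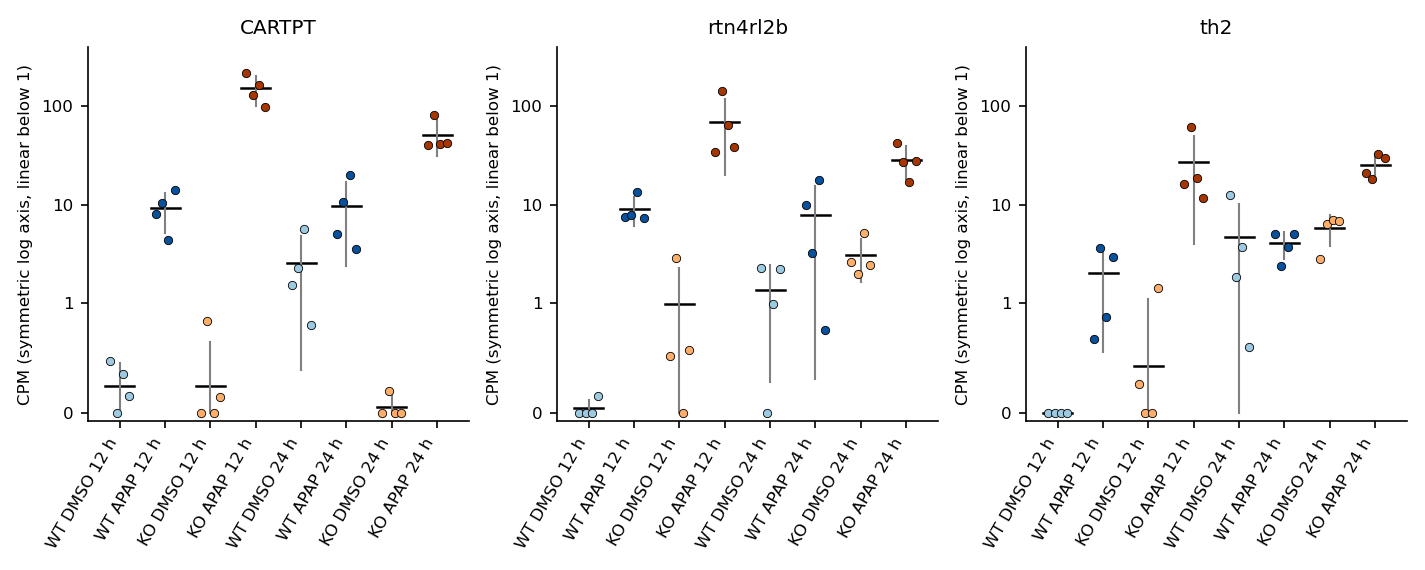
CPM of CARTPT, rtn4rl2b and th2 in each of the 32 libraries (points, in replicate order within each group) on an axis that is linear near 0 and logarithmic above, with the group mean (horizontal line) and the SD (grey bar, stopped at 0). For each gene the highest group mean is KO APAP at 12 h, at 152, 69.8 and 26.97 CPM, which for th2 rests on replicate 2 (61.2 CPM, 15.6 CPM without it against 25.5 in KO APAP at 24 h), and th2 in WT livers at 24 h is no higher after APAP (4.05 CPM) than in DMSO (4.68 CPM).

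As background to these ratios, every APAP library lay above every DMSO library for 4.55% of the 11384 tested genes in WT at 12 h, 6.43% in WT at 24 h, 3.91% in KO at 12 h and 8.2% in KO at 24 h. The members met this in 3 of 3 cases in WT at 12 h, 0 of 3 in WT at 24 h, 3 of 3 in KO at 12 h and 3 of 3 in KO at 24 h. Nothing is read from these counts, because this contrast chose the genes.

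The next comparison asked how KO and WT livers differed under APAP. It is another contrast than the one that chose the genes, but it uses the same APAP libraries, and a gene taken in for a high level in KO APAP livers is favoured in it. Of the 3 genes th2 at 24 h was higher after APAP in KO livers only. At 12 h all 3 genes were higher in KO than in WT livers in edgeR's quasi-likelihood test, adjusted by the Benjamini-Hochberg method over the 11384 genes. CARTPT was higher by 4.05 ± 0.63 on the log2 scale (SE, adjusted p = 0.000129), which is 16.5-fold. For th2 the log2 difference was 3.73 ± 0.84 (adjusted p = 0.0116), or 13.2-fold. That of rtn4rl2b was 2.95 ± 0.74 (adjusted p = 0.0239), or 7.71-fold. Of all tested genes 2.23% passed in either direction and 1.28% were higher and 0.949% lower in KO, and the median log2 difference over all tested genes was -0.304.

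The libraries themselves were separate at 12 h for each gene. The lowest KO APAP library had 98.8 CPM of CARTPT and the highest WT APAP library 13.9. For rtn4rl2b these limits were 34.1 and 13.5 CPM, and for th2 they were 11.8 and 3.59 CPM. Such a separation was met by 2.83% of all tested genes. The call for rtn4rl2b was lost when KO APAP replicate 2 or any of the 4 WT APAP libraries was left out, and that for th2 when WT APAP replicate 1 or 3 was left out, with adjusted p of up to 0.0901 and 0.0595. With a fit of the compared groups alone the log2 difference of th2 was 3.66 with an adjusted p of 0.148.

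At 24 h the same comparison called CARTPT, whose level under APAP was higher in KO livers by 2.39 ± 0.59 on the log2 scale (edgeR, adjusted p = 0.0265), or 5.24-fold. The difference of th2 was 2.65 ± 0.80 (adjusted p = 0.107) and its 95% interval ran from 1.04 to 4.26. That of rtn4rl2b was 1.84 ± 0.71 (adjusted p = 0.291), with an interval from 0.40 to 3.28. Neither passed the threshold, against 1.19% of all tested genes that passed, 0.571% that were higher and 0.624% that were lower in KO. The KO and WT libraries did not overlap for CARTPT and th2, as for 5.31% of all tested genes, and for rtn4rl2b the lowest KO library (16.9 CPM) lay just under the highest WT library (17.8 CPM).

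The CARTPT call at 24 h was lost when KO APAP replicate 2 or WT APAP replicate 1, 2 or 4 was left out, with log2 differences between 2.08 and 2.45 and adjusted p between 0.0691 and 0.141. For th2 the adjusted p at 24 h fell below 0.05 in several alternatives, at 0.0136 without the 3 libraries with the fewest genes, 0.0229 with DESeq2 and 0.00105 with the compared groups alone. In the 8 edgeR runs that left out 1 library it stayed above 0.05, at 0.138 to 0.291.

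**Figure D2:**
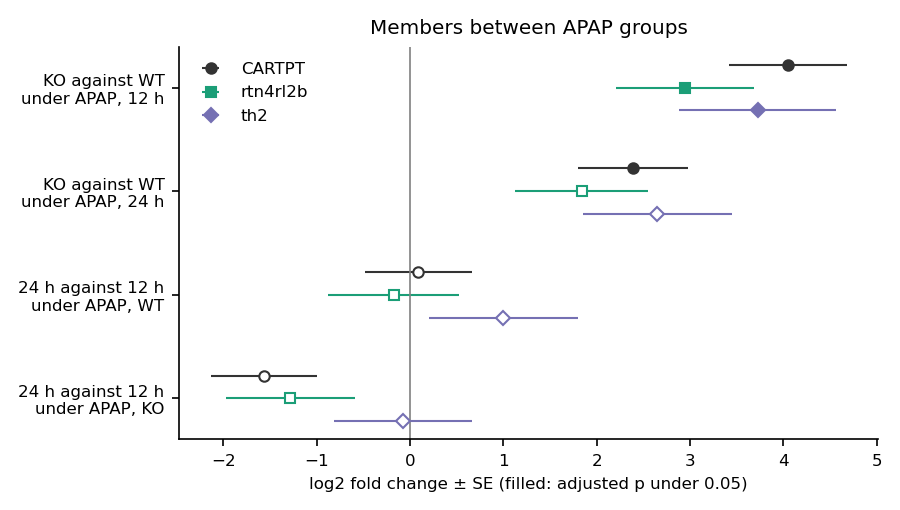
Log2 fold changes (points) and their SE (bars) for the 3 genes in the 4 pairwise comparisons among APAP groups, with filled points where the adjusted p is below 0.05. The filled points are those of all 3 genes in KO against WT under APAP at 12 h (4.05, 2.95 and 3.73) and of CARTPT at 24 h (2.39).

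Time was compared next, within APAP livers of each genotype. From 12 to 24 h the log2 differences in WT were 0.09 ± 0.57 for CARTPT, -0.18 ± 0.70 for rtn4rl2b and 1.00 ± 0.80 for th2, each with an adjusted p of 1 in edgeR. In KO livers CARTPT was lower at 24 h by a log2 difference of -1.57 ± 0.57, which did not pass in edgeR (adjusted p = 0.212). No 24 h library reached the lowest 12 h library. The share of all genes so separated was not counted for this comparison, so nothing is read from it. For rtn4rl2b in KO livers the difference was -1.28 ± 0.69 (adjusted p = 0.479), and for th2 it was -0.08 ± 0.74 (adjusted p = 0.987), which became 0.73 without KO APAP 12 h replicate 2. Of all genes 0.0527% passed this comparison in WT and 0.439% in KO. Whether the change over time differed between genotypes was tested as an interaction in edgeR, whose adjusted p was 0.936 for CARTPT at a log2 difference of -1.66 ± 0.80 and 1 for rtn4rl2b and th2. No gene of the 11384 passed that test, against 593 at an unadjusted p below 0.05 and 6 called by DESeq2.

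The wider gene families were then examined. Other Ensembl genes in the table also carry the symbol CARTPT. The second tested copy, ENSDARG00000070930, had a mean of 7.59 CPM in WT DMSO and 4.69 CPM in WT APAP at 12 h, and 7.09 and 4.84 CPM in KO DMSO and KO APAP. Over the 8 groups its means stayed between 3.94 and 7.59 CPM, and it was not called in any APAP against DMSO comparison by edgeR, where its unadjusted p did not fall below 0.05 either. The remaining copies had 37 reads (ENSDARG00000045832) and 4 reads (ENSDARG00000104363) over all 32 libraries, and the related genes cart4 and cartl had 11 and 23. Reads shared by similar copies can be misplaced or left out of the counts, which was not tested.

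Among the Nogo receptor genes rtn4rl2b was the only one with more than 118 reads over the 32 libraries. RTN4R, the Nogo receptor itself, had 118 reads, the RTN4RL1 copies had 13 and 6, and rtn4rl2a, the closest copy by name, had 6. Of the ligand genes, rtn4a and rtn4b, which encode Nogo-related reticulons, were expressed in every group, with means of 51.2 to 125 CPM and 16.3 to 33.4 CPM. The myelin ligands mag and OMG had no reads. Of 24 matched genes of the receptors, ligands and partners 6 were tested, and 0 were called by edgeR in the 4 APAP against DMSO comparisons. At an unadjusted p below 0.05 there were 0, 0, 0 and 1 in WT at 12 h, WT at 24 h, KO at 12 h and KO at 24 h, and DESeq2 called 1 as lower in KO at 12 h. The shares of all tested genes called by edgeR were 1.8%, 3.2%, 5.22% and 5.05% in that order, so 0 of 6 says little about the family.

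Genes that act with th2 in monoamine neurons were scarce. The first tyrosine hydroxylase gene, TH, had 5 reads over all 32 libraries and none under APAP. DBH and pnmt, which turn dopamine into noradrenaline and adrenaline, had 0 reads, as did the dopamine transporter SLC6A3, and the vesicular transporter SLC18A2 had 10. The tryptophan hydroxylases TPH1 (4 and 67 reads for its copies) and TPH2 (23 reads) were too low to test. DDC, the decarboxylase of the next step, had group means of 1.13 to 6.25 CPM.

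Genes of the tetrahydrobiopterin cofactor, which had no list of their own, differed in level and direction. They were part of the monoamine list, and their calls are among those counted for that list below. After APAP edgeR called GCH1 as higher in WT at 12 h and SPR in WT at 12 h and KO at 24 h, with 0 lower. Of all tested genes 1.35% were called higher in WT at 12 h and 2.05% in KO at 24 h. Nothing is read from these calls about the cofactor genes as a set. PTS, of the middle step of its synthesis, had 2 reads over the 32 libraries, the second SPR copy (ENSDARG00000058553) had 1 and a QDPR copy (ENSDARG00000086859) had 14. GCH1, which catalyses the first step of its synthesis, rose in WT livers at 12 h from 17.1 ± 9.79 to 71.5 ± 21.8 CPM (log2 2.06 ± 0.46, edgeR adjusted p = 0.00669). SPR (ENSDARG00000004406), sepiapterin reductase of the last step, rose there from 1.56 ± 1.34 to 17.0 ± 6.27 CPM (log2 3.4 ± 0.84, adjusted p = 0.0196), and in KO livers at 24 h from 2.58 ± 2.08 to 18.5 ± 0.973 CPM (2.83 ± 0.83, adjusted p = 0.0341). SPR is the weaker of these calls, since leaving out any of several single libraries raised its adjusted p to between 0.0596 and 0.134 in KO at 24 h and to between 0.0671 and 0.097 in WT at 12 h. The other tested cofactor genes, gch2, PCBD1 and the tested QDPR copies, had lower means after APAP in KO livers at 12 h and 24 h. PCBD1 went from 24.2 to 9.90 CPM at 12 h and from 8.32 to 2.68 CPM at 24 h. Their means were also lower in WT at 24 h, whereas PCBD1 and QDPR (ENSDARG00000040190) were higher by mean in WT at 12 h.

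Between genotypes under APAP, monoamine oxidase (mao), which degrades monoamines, was lower in KO livers at 12 h (log2 -1.46 ± 0.40, edgeR adjusted p = 0.0393) and at 24 h (-1.48 ± 0.40, adjusted p = 0.0491). The 12 h call was lost in 5 of 8 runs that left out 1 library and with the compared groups alone (adjusted p = 0.492). At 24 h the call was lost in each of the 8 such runs (adjusted p from 0.0735 to 0.181). QDPR (ENSDARG00000040190), which regenerates the cofactor, was lower in KO livers at 24 h (-2.30 ± 0.43, adjusted p = 0.00131), at 48.5 ± 17.3 against 239 ± 149 CPM. Its mean was also lower in KO without APAP, at 76.3 ± 22 against 432 ± 121 CPM in DMSO at 24 h and 85.8 against 141 CPM at 12 h. For mao the DMSO means were higher in KO, at 147 against 95.2 CPM at 12 h and 212 against 165 CPM at 24 h. These DMSO differences were not tested. Of 27 matched monoamine genes 11 were tested, and 2, 0, 0 and 1 rose in WT at 12 h, WT at 24 h, KO at 12 h and KO at 24 h, with 0 lower. The shares of all genes called higher in these comparisons were 1.35%, 1.64%, 3.09% and 2.05%. In WT at 24 h and KO at 12 h, where 0 were called by edgeR, DESeq2 called 1 as higher in each. At an unadjusted p below 0.05, 2 were higher and 3 lower in WT at 24 h. In KO 2 were higher and 1 lower at 12 h, and 2 were higher and 3 lower at 24 h. Without the 3 libraries with the fewest genes the counts of risen genes became 3, 2, 2 and 2, and 1 gene was lower in WT and 2 in KO at 24 h.

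**Figure D3:**
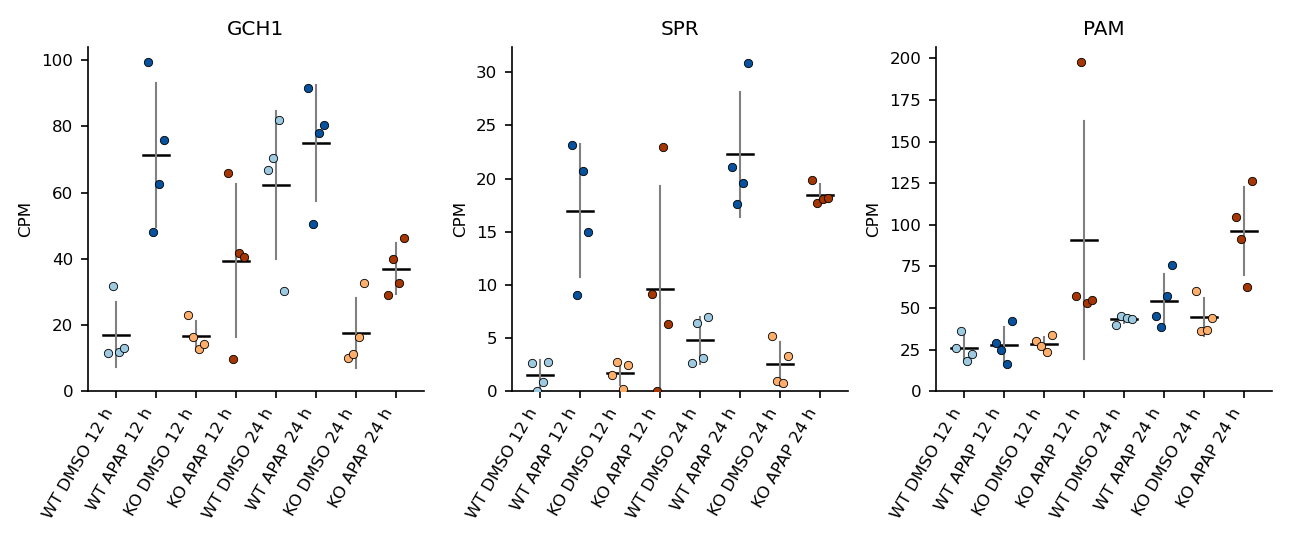
CPM of GCH1, SPR and the peptide-amidating enzyme gene PAM in each of the 32 libraries (points, linear axes), with group means (horizontal lines) and SD (grey bars, stopped at 0). GCH1 and SPR lie higher after APAP in WT livers at 12 h (71.5 against 17.1 and 17.0 against 1.56 CPM), and the PAM mean of KO APAP at 12 h (90.7 CPM) includes 1 library at 198 CPM. In WT livers at 24 h the GCH1 mean was 62.3 CPM in DMSO and 75.1 CPM after APAP.

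Markers of cell types that could carry neural transcripts were counted next, from lists that were put together with earlier results of these data known. Of 51 matched neuronal markers 32 were tested, and 0 were called by edgeR in any of the 4 APAP against DMSO comparisons, where the share of all genes called in either direction was 1.8%, 3.2%, 5.22% and 5.05%. Their median log2 differences were -1.62 and -0.31 in WT at 12 and 24 h and -0.91 and 0.70 in KO, beside -0.07, 0.02, -0.3 and 0 over all genes. At an unadjusted p below 0.05, 0 were higher and 12 lower in WT at 12 h. The DMSO group there includes replicate 1, whose summed neuronal markers reached 983 CPM. At the same p 1 was higher and 1 lower in WT at 24 h. In KO 1 was higher and 3 lower at 12 h, and 4 were higher and 0 lower at 24 h. DESeq2 called 1 as lower in WT at 12 h and 1 in KO at 12 h. Between KO and WT under APAP 0 neuronal markers were called at 12 h or 24 h, with 3 and 0 at an unadjusted p below 0.05. Their medians were -1.18 and 0.77, beside -0.3 and -0.11 over all genes. Of all tested genes 2.23% and 1.19% were called there. At 12 h the KO APAP libraries, which include the one with the fewest genes, had reads in 8 to 31 of the 51 markers. The WT APAP libraries at 12 h had reads in 27 to 36.

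The summed level of the neuronal markers had its highest group mean in WT DMSO at 12 h (328 ± 441 CPM, SD, n = 4), where rtn4rl2b and th2 had their lowest. This rank rests on 1 library, replicate 1 with 983 CPM, since without it the mean was 109.8 CPM, beside 109.6 in WT APAP at 12 h. It ranged from 66.1 to 983 CPM over the WT DMSO libraries at 12 h and from 81.6 to 151 CPM over the WT APAP libraries. In KO livers at 12 h it ranged from 64.2 to 113 CPM in DMSO and from 33.2 to 112 CPM after APAP. WT DMSO replicate 1 at 12 h had 5 reads of CARTPT (0.468 CPM, the highest of its group) and none of rtn4rl2b or th2. The genes were chosen for low levels in DMSO, so nothing is read from their low values in this library or group. At 24 h the sums were 76 to 98.4 CPM in WT DMSO, 38.8 to 93.8 in WT APAP, 47.6 to 140 in KO DMSO and 56.9 to 152 in KO APAP.

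Defining neuronal markers were present at low levels and none was at 0 throughout. ELAVL4, an RNA-binding protein of neurons, had a median of 7.27 CPM over the 32 libraries and ELAVL3 of 1.90. The synaptic SNAP25 copies had medians of 1.502 and 0.972 CPM, the STMN2 copies 2.51 and 2.63, and gap43 1.48. Each of these 7 genes had its highest group mean in WT DMSO at 12 h and its highest library in replicate 1 of that group, and without this library 2 of the 7 kept the rank. Autonomic markers PHOX2A (2.11 CPM) and RET (0.254), and the glial markers SOX10 (2.39), plp1b (1.79), mbpa (0.824) and GFAP (0), had similarly low medians. Insulin (ins) was higher, with a median of 60.8 CPM and a range of 1.91 to 503.

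None of the 9 tested enteric and autonomic, 9 glial, 11 endocrine pancreas or 8 enteroendocrine markers was called by edgeR in the APAP against DMSO comparisons, and DESeq2 called 0 as well. At an unadjusted p below 0.05, in the order WT at 12 h, WT at 24 h, KO at 12 h and KO at 24 h, there were 0, 1, 0 and 0 enteric, 1, 1, 0 and 1 glial, 2, 0, 1 and 0 endocrine pancreas, and 2, 0, 1 and 0 enteroendocrine markers. The shares of all tested genes called by edgeR were 1.8%, 3.2%, 5.22% and 5.05% in the same order, so 0 calls in lists this short say little. The part of such cells in the levels of the 3 genes was not tested.

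**Figure D4:**
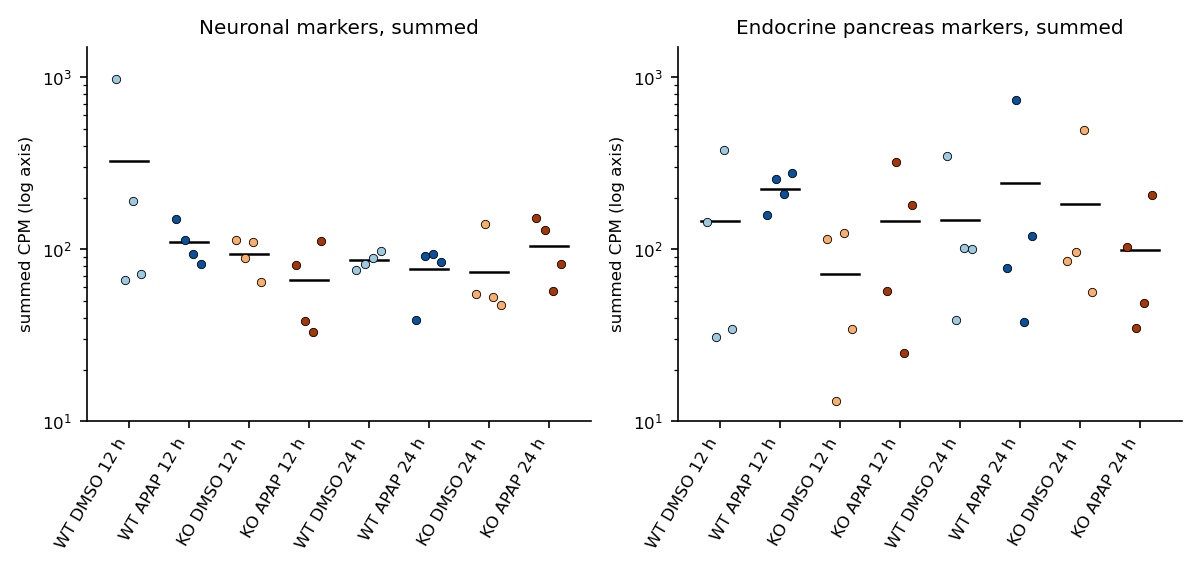
Summed CPM of neuronal and of endocrine pancreas markers in each of the 32 libraries (points, logarithmic axis), with the group mean as a horizontal line. The highest neuronal sum, 983 CPM, is in a WT DMSO library at 12 h, and the KO APAP libraries at 12 h lie between 33.2 and 112 CPM; endocrine pancreas sums run from 13.1 to 735 CPM and overlap between APAP and DMSO in WT at 12 h and 24 h and in KO at 12 h and 24 h.

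Other neuropeptide genes were counted beside the share of all tested genes called in either direction. This was 1.8% in WT at 12 h, 3.2% in WT at 24 h, 5.22% in KO at 12 h and 5.05% in KO at 24 h. At such shares 0 or 1 call in a short list says little about it. Of 13 tested precursors the only call was CALCB (ENSDARG00000056590), of the calcitonin gene family, which rose in WT livers at 24 h from 0.402 to 6.92 CPM (log2 4.04 ± 1.01, edgeR adjusted p = 0.015), and without WT APAP replicate 3 the difference was 2.63 with an adjusted p of 0.239. At an unadjusted p below 0.05, in the order WT at 12 h, WT at 24 h, KO at 12 h and KO at 24 h, 6, 1, 2 and 0 precursors were higher and 0, 0, 1 and 1 lower. Their median log2 differences were 1.82, 0.61, -0.17 and -0.65, beside -0.07, 0.02, -0.3 and 0 over all genes. DESeq2 called 1 as higher in WT at 24 h and 1 as lower in KO at each time. Among 10 tested genes of prohormone processing, PAM, which amidates peptides, rose in KO livers at 12 h from 28.6 ± 4.32 to 90.7 ± 71.5 CPM (1.66 ± 0.39, adjusted p = 0.00653). It was also higher there than in WT APAP livers (1.69 ± 0.39, adjusted p = 0.0133). KO APAP replicate 2, with the fewest genes, had 198 CPM of PAM, and without it the log2 differences were 0.92 (adjusted p = 0.0752) and 0.98 (adjusted p = 0.0947). The lowest KO APAP library at 12 h (52.8 CPM) still lay above the highest KO DMSO library (33.6 CPM), a separation met by 3.91% of all tested genes. In KO at 24 h the PAM mean was 96.3 ± 26.6 CPM after APAP and 44.5 ± 11.3 CPM in DMSO, and edgeR did not call it. The lowest APAP library there (62.7 CPM) lay just above the highest DMSO library (60.5 CPM), as for 8.2% of all tested genes. In WT the PAM values of the treatments overlapped at both times.

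Genes that neurons switch on with activity or after nerve injury were counted as well, since many of them also respond to stress elsewhere. Of 18 tested genes regulated by the transcription factor CREB or by activity, 4 rose in WT at 12 h, 0 in WT at 24 h, 7 in KO at 12 h and 6 in KO at 24 h, and none fell. The shares of all genes called higher were 1.35%, 1.64%, 3.09% and 2.05%. In WT at 24 h, 5 had an unadjusted p below 0.05 and DESeq2 called 1. The median log2 differences were 1.43, 0.65, 1.54 and 1.35, beside -0.07, 0.02, -0.3 and 0 over all genes. PCK1, the gluconeogenic enzyme phosphoenolpyruvate carboxykinase, rose in KO livers at 12 h from 216 to 2373 CPM (3.46 ± 0.42, adjusted p = 4.51e-07). The transcription factor genes JUNB (5.11 ± 0.82, adjusted p = 5.81e-05) and FOSL1 (4.91 ± 0.80, adjusted p = 6.89e-05) rose in the same comparison, and the kinase gene SIK1 rose in KO at 24 h (2.75 ± 0.59, adjusted p = 0.00217).

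Of 27 tested nerve injury genes, 1 rose and 1 fell in WT at 12 h, 0 changed in WT at 24 h, 3 rose in KO at 12 h and 2 rose in KO at 24 h, against the same shares of all genes called higher, 1.35%, 1.64%, 3.09% and 2.05%. In WT at 24 h, 2 had an unadjusted p below 0.05 and DESeq2 called 2 as higher. The 3 in KO at 12 h were ARG2, a mitochondrial arginase (2.83 ± 0.48, edgeR adjusted p = 0.000113), JUN (2.62 ± 0.53, adjusted p = 0.00127, but 0.275 with the compared groups alone) and ATF3 (3.02 ± 0.84, adjusted p = 0.0266), the last lost without any of several single libraries.

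The gene that rose in WT at 12 h was again ARG2 (1.72 ± 0.46, edgeR adjusted p = 0.0393). This call was lost with relative log expression scaling (1.61, adjusted p = 0.0521), the compared groups alone (0.0885) and in 5 of 8 runs that left out 1 library (0.0828 to 0.226). The gene that fell there was basp1, of growing axons (-1.92 ± 0.44, adjusted p = 0.00926). Its call was lost without WT DMSO replicate 1, the library with 983 CPM of neuronal markers (-1.49, adjusted p = 0.0982), and without WT APAP replicate 3 (-1.79, adjusted p = 0.0572). ARG2 was also higher in KO than in WT livers under APAP at 12 h, by 2.34 ± 0.47 (adjusted p = 0.00396), in the comparison in which the 3 members differed.

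Liver cell markers moved with the treatment in the same libraries. Of 20 tested hepatocyte markers 0, 3, 0 and 5 were lower after APAP in WT at 12 h, WT at 24 h, KO at 12 h and KO at 24 h, among them ahsg1, a fetuin gene, which fell in KO at 24 h (-4.24 ± 0.75, edgeR adjusted p = 0.000168). Of 10 tested biliary markers 2, 1, 3 and 3 rose, including krt18a.1, a keratin, at 2.45 ± 0.35 in WT at 12 h (adjusted p = 8.91e-06) and 2.40 ± 0.35 in KO at 12 h (adjusted p = 9.47e-06). Other keratin calls among these were weaker in edgeR. That of krt18b in KO at 12 h was lost without KO APAP replicate 2 (1.38, adjusted p = 0.166). The krt8 call was lost in KO at 12 h with the compared groups alone (adjusted p = 0.0582). In KO at 24 h it was lost in 5 of 8 runs that left out 1 library. At 12 h 1 hepatocyte marker was higher and 1 lower in WT at an unadjusted p below 0.05. In KO at 12 h 4 were higher and 1 lower, and DESeq2 called 1 as lower. Hepatocyte medians on the log2 scale were 0.01 in WT and 0.44 in KO there, beside -0.07 and -0.3 over all genes. Of 19 tested exocrine pancreas markers 4 fell in KO at 24 h. The share of all genes called lower was 0.448%, 1.55%, 2.13% and 3% in these comparisons, and that called higher 1.35%, 1.64%, 3.09% and 2.05%.

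Markers of gut, muscle and skin were counted too. Of 15 tested intestine markers 0, 0, 2 and 1 were lower after APAP in the same order, and 0 were higher. FABP2, an intestinal fatty acid binding protein, went from 1918 to 399 CPM in KO at 12 h (-2.27 ± 0.49, edgeR adjusted p = 0.00269), a call that was lost without KO DMSO replicate 2 (-1.28, adjusted p = 0.0999). The peptide transporter gene SLC15A1 fell there from 6.83 to 0.292 CPM (-4.40 ± 1.35, adjusted p = 0.0467), and most single libraries left out ended its call. At an unadjusted p below 0.05, 1, 0, 2 and 1 intestine markers were higher and 1, 1, 5 and 2 lower, and DESeq2 called 1 as lower in WT at 12 h.

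Of 23 tested skeletal muscle markers 0, 1, 0 and 0 were higher and 0 lower. At an unadjusted p below 0.05, 4, 12, 2 and 1 were higher and 1, 1, 1 and 0 lower, and DESeq2 called 2 as higher in WT at 24 h and 1 as lower in KO at 12 h. The call was pvalb2, a parvalbumin gene, with 593 CPM in DMSO and 1655 after APAP (1.48 ± 0.39, edgeR adjusted p = 0.0226). It was lost without WT APAP replicate 2 or 3 or WT DMSO replicate 2 or 3, with adjusted p up to 0.132. Of 15 tested epidermis markers 0, 0, 0 and 2 were lower, against 1, 1, 3 and 3 at an unadjusted p below 0.05 and 1, 1, 2 and 2 called by DESeq2. The part of these shifts in the levels of the 3 genes was not tested.

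Over the 8 group means of log2(CPM + 1) the members resembled one another with a Pearson r of 0.947 for CARTPT and rtn4rl2b, 0.874 for rtn4rl2b and th2 and 0.816 for CARTPT and th2, a resemblance that their shared choice in part fixes. The named genes with the most similar pattern were taken from 6962 candidates. For CARTPT they were actb2 (r = 0.984), mdp1 (0.974), hsp70.3 (0.973), IMPDH2 (0.972) and RDH10 (0.969). Of these RDH10, a retinol dehydrogenase, also had the highest r over the 32 libraries, 0.904, and its group means went from 10.4 CPM in KO DMSO to 223 CPM in KO APAP at 12 h. The heat shock gene hsp70.3 was at 0 in both DMSO groups at 12 h and at 34.4 CPM in KO APAP.

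The genes most like rtn4rl2b were PFKFB3 (r = 0.977), c7b (0.968), CERS2 (0.966), nbr1b (0.966) and ubb (0.959). PFKFB3, a regulator of glycolysis, kept an r of 0.899 over the 32 libraries and had 41.8 CPM in KO APAP at 12 h against 0.804 in KO DMSO. For th2 the list was XBP1 (r = 0.988), GYG1 (0.981), BLTP3B (0.978), zfand5a (0.974) and ITPKC (0.972). XBP1, a transcription factor of the unfolded protein response, shared with th2 a higher level in 24 h than in 12 h DMSO livers, at 695 against 363 CPM in WT and 848 against 406 CPM in KO. When likeness was measured over the 32 libraries, 1, 1 and 2 of the 5 genes were kept for CARTPT, rtn4rl2b and th2.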

How the data were processed

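The authors deposited a table of raw read counts, 1 row per Ensembl gene and 1 column per library, for 32 libraries. Per the submitters' processing notes bcl2fastq, Trim Galore, HISAT2 and HTSeq were used with build GRCz11; their versions, the annotation and the strand setting are not given in the sources used here. RNA was extracted in TRIzol with a Zymo kit, per the labels. Lines for reads without a gene, 21.3% to 33.7% per library, were left out. Symbols came from a name table and matched 29200 of 32519 genes.

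The 11384 genes kept by filterByExpr (minimum count 10) were scaled by TMM (trimmed mean of M values) in edgeR 4.0.16 (R 4.3.3). A quasi-likelihood model with 1 mean for each of the 8 groups was fitted to the 32 libraries together. CPM used the counts of tested genes times the TMM factor as library size. The p-values were adjusted by the Benjamini-Hochberg method and called below 0.05. Same-numbered libraries deviated together in 4 of 4 pairs for APAP against DMSO in KO at 24 h (r of 0.137 to 0.184) and in no other comparison in every pair. The code was tested on simulated data. Intervals and the floor of 3 reads cover counting error only. The labels do not say that replicates came from separate clutches, so p-values measure the spread between these pools. No 2 libraries of a group agreed within sampling noise.

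Members, lists and tests were chosen with earlier results of these data known. Named genes were the members, their 5 most similar genes with a symbol and a group mean of at least 5 CPM, up to 3 called genes per list and comparison, the most abundant genes of lists without a call, and any gene of the CART, monoamine and Nogo receptor lists. A few genes were left out of the lists after the analysis and are not reported here. Of the remaining 417 list symbols 273 matched directly and 101 after removal of a copy suffix. Alternatives were DESeq2 1.42.0, relative log expression scaling, no filter, only the compared groups, the replicate number as a block, and leaving out libraries.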

Additional observations from a re-analysis of the deposited data

Results flagged for a closer look

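In 6 of 24 groups of 4 values (3 genes in 8 groups) 1 library stood apart from the others by Dixon's test. For normally distributed values chance gives such a result in about 1 in 20 groups, and whether CPM values are so distributed was not checked. In 2 of the 6 groups a single read against 3 libraries at 0 meets the test by construction. Among the 24, th2 in WT DMSO at 12 h was 0 in all 4 libraries and could not meet it. CARTPT had 81.8 CPM in KO APAP 24 h replicate 2, with 42.5 CPM in the next library and 40 in the lowest. In KO DMSO at 24 h the same replicate number had 0.2 CPM of CARTPT, from a single read, and the other libraries 0. For rtn4rl2b, WT APAP 12 h replicate 3 had 13.5 CPM, with 7.82 in the next library and 7.4 in the lowest, and WT DMSO 12 h replicate 4 had 0.152 CPM, again a single read, with 0 in the others. The highest th2 value, 61.2 CPM in KO APAP 12 h replicate 2, stood above 18.8 CPM in the next library and 11.8 in the lowest, and that library had the fewest detected genes. In KO DMSO at 24 h the lowest th2 value, 2.82 CPM in replicate 1, stood below 6.39 CPM in the next library and 7.07 in the highest.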

How the results depend on the processing

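The call of CARTPT in KO against WT under APAP at 12 h held in every alternative run. For th2 at 24 h the log2 difference became a call at 2.67 without the filter (adjusted p = 0.0322), 2.68 without the 3 libraries with the fewest genes, 2.64 with only the compared groups and 2.57 with DESeq2, and at 12 h it was 3.66 and no longer a call with only the compared groups. Leaving out any single library did not make th2 at 24 h a call (edgeR, adjusted p from 0.138 to 0.291). Signs turned for values that were not calls: CARTPT from 12 to 24 h in WT was -0.17 with the replicate block, and th2 over the same interval in KO was 0.73 without the 3 libraries; the causes were not tested. For APAP against DMSO in KO at 24 h same-numbered libraries deviated together (r of 0.137 to 0.184 in 4 of 4 pairs, each highest with its own number), and the replicate block gave 568 called genes there against 575. In the other comparisons not every pair had an r over 0.1 (from -0.266 to 0.28, over 0.1 in 11 of 28), so the numbers were not taken to pair those libraries; there the block gave adjusted p of 0.063 for mao in KO against WT at 24 h, 0.0825 for ARG2 in WT at 12 h and 0.0703 for SLC15A1 in KO at 12 h. The replicate block changed no call of a member, nor of a named gene in KO at 24 h; at 12 h its log2 differences between KO and WT were 3.96, 2.9 and 3.78 for CARTPT, rtn4rl2b and th2. Leaving out single libraries gave, for KO against WT at 12 h, 3.81 to 4.32, 2.35 to 3.18 and 2.95 to 4.15 in the same gene order, and at 24 h 2.08 to 2.98, 1.49 to 2.61 and 2.50 to 2.81. For 24 against 12 h the ranges were -0.49 to 0.39, -0.93 to 0.21 and 0.71 to 1.45 in WT, -1.86 to -1.32, -1.48 to -0.66 and -0.27 to 0.73 in KO, and -1.96 to -1.08, -1.44 to -0.33 and -1.52 to -0.27 for the interaction.

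Counts of called genes over the table moved as well. Without the filter they were 47 (WT) and 212 (KO) for 24 against 12 h and 30 for the interaction. Without the 3 libraries they were 443 for KO against WT at 24 h, 45 for time in WT, and 414, 916 and 1215 for APAP against DMSO in WT at 12 h, WT at 24 h and KO at 24 h. With only the compared groups they were 32 and 324 for KO against WT at 12 and 24 h, 10 and 5 for time in WT and KO, and 777, 91 and 1436 for APAP in WT at 24 h, KO at 12 h and KO at 24 h. DESeq2 called 778 and 299 for KO against WT, 34 and 314 for time, 6 for the interaction, and 415, 663, 1285 and 907 for APAP. The split of KO against WT at 12 h, 146 higher and 108 lower, became 95 and 126 with relative log expression scaling, and that of APAP in KO at 12 h went from 352 and 242 to 244 and 345. Leaving out single libraries gave 101 to 273 and 76 to 106 for KO against WT at 12 and 24 h, 1 to 2 and 12 to 87 for time in WT and KO, 0 to 2 for the interaction, and 139 to 167, 213 to 329, 351 to 650 and 373 to 465 for APAP. A library without a read of a member does not show absence at depths of 3971569 to 6298523 counts.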
